A study of Mus musculus with 2 samples.

Results

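Valine tRNAs carry valine, a branched-chain amino acid, to the ribosome, and they were followed here as the loci of the mature tRNA table whose name ends in ValAAC, ValCAC or ValTAC. The rule found 13 of the 217 loci of the table, 5 of ValAAC, 7 of ValCAC and 1 of ValTAC. The table came from small RNA sequencing of primary murine fibroblasts (PMFs), grown out of ear clippings of C57BL/6 mice (C57BL/6-J in the study's methods) of about 3 weeks of age, in which the C/D box snoRNA AF357425 was either raised or inhibited to find small RNAs that respond to it. There was 1 library of AF25-high cells, transfected with 3GA-AF25, a 3rd generation antisense made of DNA, at 200 nM, and 1 library of AF25-low cells, transfected with GM-AF25, a gapmer with a DNA core between 2′-O-methylated ends, at 500 nM. Before the 24 h of transfection both cultures were synchronized in G1 with KN-93 (10 μM, 48 h), which blocks the kinase CaMK-II. Chemistry and dose of the oligonucleotide therefore changed together with the level of AF357425 and cannot be told apart from it, and cells with a control oligonucleotide were not analysed here. The reads of AF357425 were not analysed here either. Pairs of values are given with AF25-high first throughout.

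Isoacceptors are tRNAs that carry the same amino acid with different anticodons. ValAAC, whose first anticodon base is deaminated to inosine, reads the codons GTC and GTT, ValCAC reads GTG, and ValTAC reads GTA and, by wobble, GTG. tRNAs are known to be cut in or beside the anticodon loop by angiogenin under stress, which leaves 5′ and 3′ fragments, and valine tRNAs are among those often found as 5′ fragments. In the mouse, the methyltransferase DNMT2 methylates a cytosine just after the anticodon of ValAAC, AspGTC and GlyGCC, a mark known to shield these tRNAs from cleavage.

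To show what a valine tRNA looks like, the gene of 1 ValCAC tRNA is given. It is n-TVcac9 on the minus strand of chromosome 13 (chr13:23446142-23446214, GRCm38.p6, RefSeq), the only valine tRNA gene that lay inside a sequence window of the RefSeq table used here. It lies between genes in GENCODE M21 and 171 bases upstream of the start of Gm46404, a RefSeq gene on the same strand. The anticodon is in capitals.
n-TVcac9: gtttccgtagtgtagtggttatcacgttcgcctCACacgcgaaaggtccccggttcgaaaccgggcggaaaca
The gene has 73 bases, and the anticodon takes bases 34 to 36 from the 5′ end. All 7 pairs of the acceptor stem, 5 pairs of the anticodon stem and 5 pairs of the T stem are Watson-Crick pairs, and base 38, which corresponds to the cytosine that DNMT2 methylates in ValAAC, is a C here too. The letters AACCCCA, the site of tRNALeu(TAA) that faces the D′ guide of AF357425, and their reverse complement TGGGGTT do not occur in it. Either of these 7-letter strings was found in 1.29% of the 32851 RefSeq promoter windows over the same 73 bases. The table lists 3 of the 5 ValCAC genes that RefSeq has on chromosome 13, without coordinates, so which locus of the table this gene corresponds to is not known.

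The library totals, estimated from the study's supplement as described below, were 28856715 reads (AF25-high) and 29103700 reads (AF25-low). Reads assigned to mature tRNAs were 689078 and 472550. Values are given in reads and as RPM (reads scaled to the total of the whole library), and ratios (AF25-high over AF25-low) carry an exact Clopper-Pearson 95% interval. The interval covers counting error only, since reads are not independent molecules, and with 1 library per condition no test between conditions was possible. All tRNAs together had a ratio of 1.47 (1.47 to 1.48). The size factors in the authors' normalized counts multiply each ratio of the table by 0.744, so that a ratio of 1.34 becomes 1 and the direction of ratios between 1 and that value depends on the scaling. In bulk RNA, fewer cells of a type and less RNA per cell cannot be told apart. Of 8 microRNA genes chosen as markers of fibroblasts, the Ensembl table listed Mir143, Mir145a and Mir21a, at a sum of 84.0 and 84.4 RPM. Of 26 microRNA genes chosen as markers of other cells (epithelial, blood, endothelial, striated muscle and nerve cells), it listed only Mir200a, with 6 and 0 reads. The study counted most microRNA reads with miRBase and not in the Ensembl table. A marker that is not listed there therefore does not show that its cells were absent.

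Valine tRNAs had 19349 reads in the AF25-high library against 15639 in the AF25-low library, or 671 against 537 RPM. Their ratio of 1.25 (1.22 to 1.27) ranked 15 among the 21 amino acids (selenocysteine included), below the 1.48 (1.47 to 1.48) of all other tRNAs. The share of valine among tRNA reads, which needs no scaling between the libraries, was 2.81% (2.77 to 2.85) in AF25-high against 3.31% (3.26 to 3.36) in AF25-low cells. Valine tRNAs thus made up a smaller part of the tRNA reads in AF25-high, while their RPM was higher. With the size factors of the deposited values the ratio was 0.928.

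The isoacceptors differed. ValCAC, the most abundant of them, had 15031 and 11181 reads (521 and 384 RPM), a ratio of 1.36 (1.32 to 1.39). ValTAC had 2539 and 2471 reads (88.0 and 84.9 RPM), with an interval that held 1 (1.04, 0.980 to 1.10). ValAAC had 1779 and 1987 reads (61.6 and 68.3 RPM) and, as assigned in this table, a ratio of 0.903 (0.847 to 0.963). Of the 48 anticodons that reached 50 reads in either library, 79.2% had an interval above 1, 10.4% had one below 1 and for 10.4% it held 1, and by ratio ValCAC ranked 25, ValTAC 38 and ValAAC 44. The scalings tried lower every ratio, except that to microRNA reads, which multiplies it by 1.01. None of them could therefore bring the ratio of ValAAC above 1. Its direction depends on how reads are split between ValAAC and ValCAC. The RPM in the study's supplement come from another split of the reads of these anticodons, in which ValAAC takes a larger part and its direction is the opposite one. If 10% of the ValCAC reads of each library were counted as ValAAC, its ratio would be 1.07 (1.01 to 1.12), and 4.85% would bring it to 1. The sum of ValAAC and ValCAC, which does not depend on this split, had 16810 and 13168 reads and a ratio of 1.29 (1.26 to 1.32).

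Within the valine reads, as assigned in this table, the share of ValCAC was higher in AF25-high and those of ValAAC and ValTAC were lower. ValCAC took 77.7% (77.1 to 78.3) of the valine reads in AF25-high against 71.5% (70.8 to 72.2) in AF25-low cells. ValTAC took 13.1% (12.6 to 13.6) and 15.8% (15.2 to 16.4), and ValAAC 9.19% (8.79 to 9.61) and 12.7% (12.2 to 13.2). None of these intervals overlapped between the libraries, but they cover counting error only, and shares of a whole do not move independently. How often such shares overlap over all families was not counted. For the ratio of RPM, a different measure, the interval held 1 for only 10.4% of the 48 anticodons. For each 100 reads of ValCAC there were 11.8 reads of ValAAC in AF25-high against 17.8 in AF25-low cells, which gives 0.666 (0.622 to 0.714). This value needs no scaling, but it depends on the split as well, and counting 10% of the ValCAC reads as ValAAC moved it to 0.786 (0.744 to 0.831). Other parts, or parts that differ between the libraries, were not tried. In the split of the study's supplement, ValAAC takes a larger part than this. There, ValAAC relative to ValCAC was not lower in AF25-high, nor was the share of ValAAC among the valine reads. The share of ValCAC was nearly the same in both libraries there. As assigned in this table, ValTAC relative to ValCAC had a ratio of 0.764 (0.719 to 0.812). ValAAC relative to ValTAC had 0.871 (0.800 to 0.949). This value depends on the split too, through the ValAAC reads, and in the split of the study's supplement its direction is the opposite one.

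**Figure D1:**
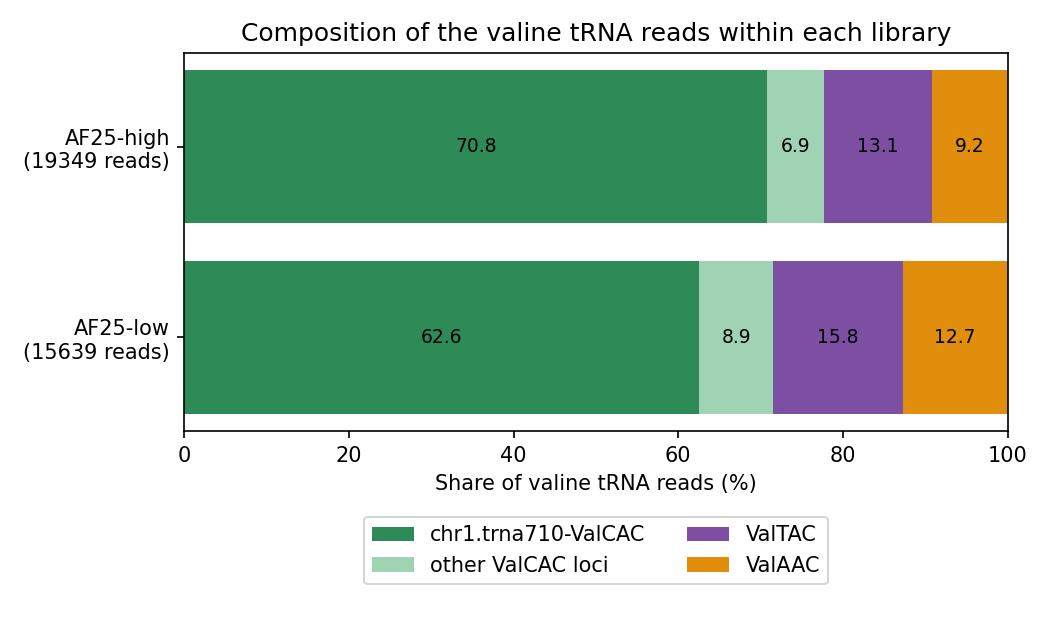
Share of valine tRNA reads (%, horizontal axis) taken by the most abundant ValCAC locus, the other ValCAC loci, ValTAC and ValAAC, with 1 bar for each library. The locus chr1.trna710-ValCAC takes 70.8% (AF25-high) and 62.6% (AF25-low), and ValAAC takes 9.19% and 12.7%.

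As assigned in this table, the higher share of ValCAC rested on 1 locus. chr1.trna710-ValCAC had 13697 and 9783 reads (475 and 336 RPM), a ratio of 1.41 (1.38 to 1.45), and took 70.8% (70.1 to 71.4) and 62.6% (61.8 to 63.3) of all valine reads. RefSeq has 1 ValCAC gene on this chromosome, n-TVcac6 (chr1:171111443-171111515, GRCm38.p6), which lies between genes of GENCODE M21 with 19 other tRNA genes within 50 kb. Without this locus the remaining valine reads, 5652 and 5856, had a ratio of 0.973 (0.938 to 1.01), and the other 6 ValCAC loci, with 1334 and 1398 reads, had 0.962 (0.892 to 1.04). ValAAC relative to the other ValCAC loci was 0.938, and ValTAC relative to them was 1.08. Of the 8 other tRNA loci of chromosome 1 that reached 20 reads in either library (the minimum for counts of loci here), 5 had a ratio above 1 and 3 below, with a median log2 ratio of 0.29. Since the authors gave a read with several matches to the most expressed locus, reads shared with other valine genes are counted at the most abundant of them. How many of its reads are shared was not analysed. In the study's supplement, ValCAC as a whole has fewer RPM in each library than this locus has here. The share of ValCAC among valine tRNAs is nearly the same in both libraries there.

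**Figure D2:**
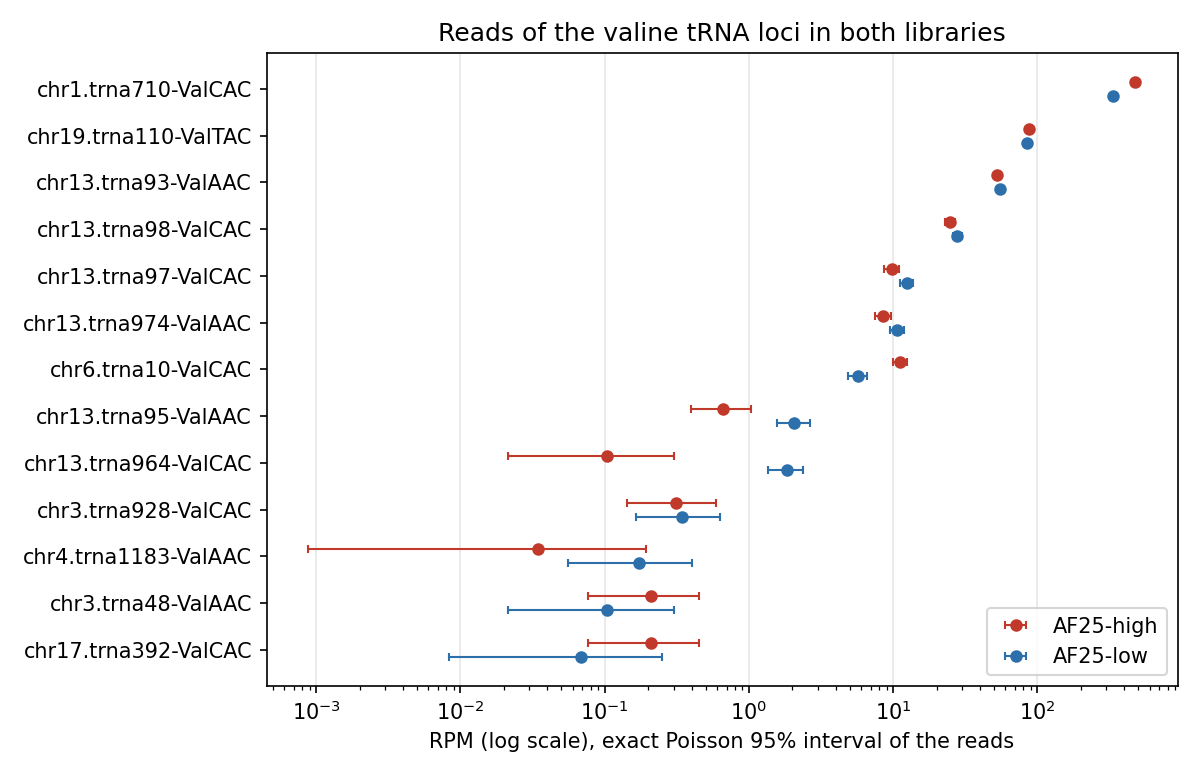
RPM (log scale, horizontal axis) of the 13 valine tRNA loci in AF25-high and AF25-low cells, with 1 point for each library and a bar for the exact Poisson 95% interval of the reads. chr1.trna710-ValCAC lies at 475 and 336 RPM, and the 4 rarest loci have at most 10 reads in either library.

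Besides chr1.trna710-ValCAC, loci of chromosomes 19 and 6 had more reads in AF25-high. All ValTAC reads were assigned to chr19.trna110-ValTAC, whose values are those of ValTAC above. RefSeq has a pair of ValTAC genes on chromosome 19, n-TVtac1 (chr19:12011931-12012003) and n-TVtac2 (chr19:12012266-12012338), and which of them the locus is cannot be read from its name. chr6.trna10-ValCAC had 320 and 165 reads (11.1 and 5.67 RPM), and its ratio of 1.96 (1.62 to 2.37) was the highest of the valine loci at this minimum. Relative to chr1.trna710-ValCAC it was 1.39-fold higher in AF25-high (1.14 to 1.68). The only ValCAC gene of RefSeq on chromosome 6, n-TVcac5 (chr6:10100371-10100443), lies between genes with no other tRNA gene within 50 kb.

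As assigned in this table, the 6 valine loci of chromosome 13 were all lower in AF25-high. chr13.trna93-ValAAC, which takes most ValAAC reads, had 1506 and 1609 reads (52.2 and 55.3 RPM), and its interval held 1 (0.944, 0.879 to 1.01). chr13.trna98-ValCAC had 715 and 808 reads (24.8 and 27.8 RPM), a ratio of 0.892 (0.806 to 0.988). chr13.trna97-ValCAC had 281 and 360 reads (9.74 and 12.4 RPM), a ratio of 0.787 (0.671 to 0.923). These ValAAC and ValCAC loci had ratios from 0.787 to 0.944. chr13.trna974-ValAAC had 247 and 310 reads (8.56 and 10.7 RPM), a ratio of 0.804 (0.677 to 0.953). The last pair had few reads and differed most. chr13.trna95-ValAAC had 19 and 60 reads (0.658 and 2.06 RPM), a ratio of 0.319 (0.180 to 0.543). chr13.trna964-ValCAC had 3 and 53 reads (0.104 and 1.82 RPM), a ratio of 0.0571 (0.0114 to 0.176).

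By anticodon, the ValAAC loci of chromosome 13 summed to a ratio of 0.903 (0.847 to 0.963) and its ValCAC loci to 0.825 (0.758 to 0.898). chr13.trna93-ValAAC relative to chr13.trna98-ValCAC had 1.06 (0.934 to 1.20), and chr13.trna97-ValCAC relative to chr13.trna974-ValAAC had 0.980 (0.774 to 1.24), both with intervals that held 1. Both pairs join loci whose ratios were close, so these intervals do not show how alike ValAAC and ValCAC loci are. Other pairs of a ValAAC and a ValCAC locus of this chromosome were not compared. Together the 6 loci had 2771 and 3200 reads (96.0 and 110 RPM), a ratio of 0.873 (0.830 to 0.919). None of the scalings tried could bring this ratio above 1, since they lower every ratio or, for microRNA reads, multiply it by 1.01. The sum depends on the assignment, since counting 10.1% of the reads of chr1.trna710-ValCAC at these loci in each library would bring its ratio to 1. In AF25-high, 1772 of the 1779 ValAAC reads lay at these loci. In the study's supplement ValAAC takes a larger part and is higher in AF25-high. The supplement gives no loci, so the direction of this sum in its split is not known. Their share of the valine reads was 14.3% (13.8 to 14.8) in AF25-high against 20.5% (19.8 to 21.1) in AF25-low cells. Relative to chr1.trna710-ValCAC their ratio was 0.618 (0.584 to 0.655), relative to chr6.trna10-ValCAC 0.446 (0.365 to 0.544) and relative to chr19.trna110-ValTAC 0.843 (0.781 to 0.909). The grouping by chromosome was chosen after the values were seen.

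**Figure D3:**
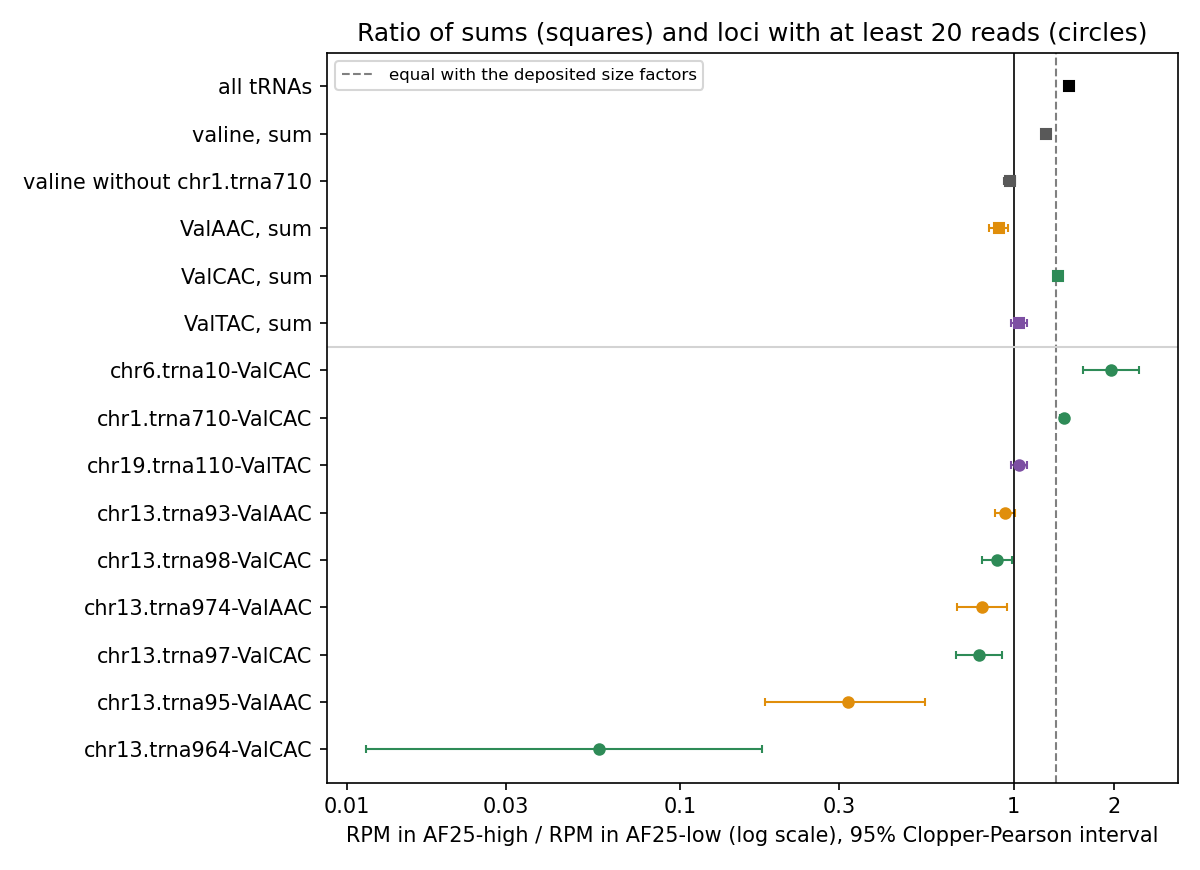
RPM in AF25-high over RPM in AF25-low cells (log scale, horizontal axis) for sums (squares) and for the 9 valine loci that reached 20 reads in either library (circles), with Clopper-Pearson 95% intervals. The solid line marks a ratio of 1, and the dashed line marks 1.34, which becomes 1 with the deposited size factors. As assigned in the table used here, the 6 loci of chromosome 13 lie below 1, from 0.0571 to 0.944.

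RefSeq has 22 valine tRNA genes, 10 of them on chromosome 13, where they lie from 22015791 to 23446214 of GRCm38 among 33 tRNA genes in this span. 5 of the 10 are ValAAC and 5 ValCAC genes. n-TVaac3 lies in an intron of Gm11290, and n-TVaac4, n-TVaac6, n-TVcac4 and n-TVcac11 lie in an intron of 4930557F10Rik, while the other 5 lie between genes. ValAAC accounts for 8 of the 22 genes (36.4%), ValCAC for 11 and ValTAC for 3 (13.6%). As assigned in this table, ValAAC took at most 12.7% of the valine reads, a share that depends on the split given above. In the split of the study's supplement, its share was close to its share of the genes.

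Of the 9 valine loci that reached 20 reads in either library, 3 had a ratio above 1 and 6 below, while 71.8% of the 149 tRNA loci at this minimum were higher and 28.2% lower. Intervals above 1 were found for 2 valine loci and intervals below 1 for 5, against 63.1% and 15.4% of all loci. None of the 9 was at least 2-fold higher in AF25-high, against 20.8% of all loci, and 2 were at least 2-fold lower, chr13.trna95-ValAAC and chr13.trna964-ValCAC, against 2.68% (4 loci, these 2 among them). The median log2 ratio (0.5 reads added) was -0.16 for the valine loci and 0.50 for all loci. With the deposited size factors chr1.trna710-ValCAC and chr6.trna10-ValCAC remained above 1, as did 52.3% of all loci, and with scaling to the summed tRNA reads chr6.trna10-ValCAC alone of the valine loci and 45.6% of all loci. Loci share reads and are not replicates, so these counts describe the 2 libraries.

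**Figure D4:**
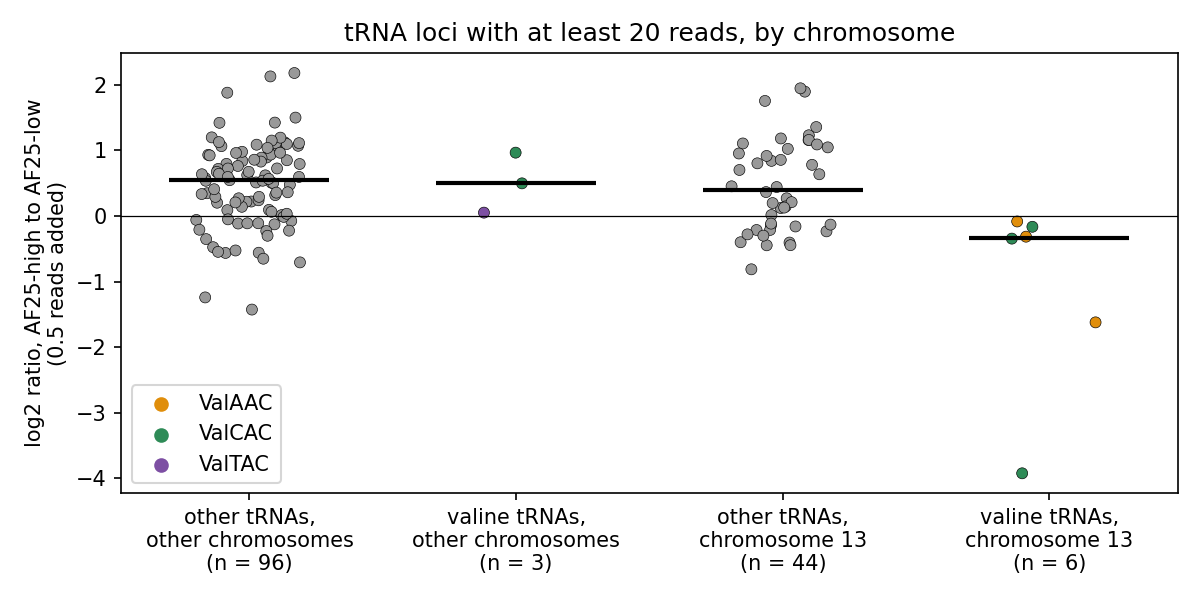
log2 ratio of AF25-high to AF25-low (vertical axis, 0.5 reads added) of the 149 tRNA loci that reached 20 reads in either library, split by chromosome 13 and by valine against other tRNAs, with 1 point for each locus and a line at the median. As assigned in the table used here, the 6 valine loci of chromosome 13 have a median of -0.33, and the 44 other tRNA loci of this chromosome have 0.40.

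Most other tRNA loci of chromosome 13 were higher in AF25-high, but a larger part of them was lower than on other chromosomes. Of its 44 other tRNA loci at the same minimum, 30 had a ratio above 1 and 14 below, with a median log2 ratio of 0.40, and none was at least 2-fold lower. Their sum had a ratio of 1.56 (1.54 to 1.57). On other chromosomes, 74 of 96 other tRNA loci were higher and 22 lower (median 0.54). Intervals below 1 were found for 8 of the 44 loci and for 10 of the 96. The difference between valine and other loci of chromosome 13 was not tested, since each condition has 1 library.

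The remaining 4 valine loci were rare. chr3.trna928-ValCAC had 9 and 10 reads, chr3.trna48-ValAAC 6 and 3, chr17.trna392-ValCAC 6 and 2, and chr4.trna1183-ValAAC 1 and 5, and all of their intervals held 1. The last corresponds to n-TVaac1 (chr4:139430506-139430577), which lies in an intron of Ubr4, a gene for a ubiquitin ligase, and has 72 instead of 73 bases. At this depth no difference between the libraries was detectable for these loci.

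ValAAC was also set beside the tRNAs that share its modifications. Since its own direction depends on the split of reads, the counts leave it out. LeuTAG, IleGAT, GlyCCC and GlyGCC are counted as assigned in this table. In the study's supplement each of them has the opposite direction, so the counts hold for this assignment only. Of the 7 other anticodons whose first base becomes inosine, 6 were higher and 1 was lower, LeuAAG (0.644, 0.628 to 0.659). Of the other DNMT2 substrates, AspGTC was higher (1.77, 1.74 to 1.80), while GlyGCC lay so close to 1 (0.981, 0.964 to 0.998) that a small error of the library totals would turn it. Among the 7 others often seen as 5′ fragments, 6 were higher, ValCAC among them, and GlyGCC was the remaining one. Of the 10 others for the branched-chain amino acids leucine, isoleucine and valine, 8 were higher and 2 lower. Among the 48 anticodons, 40 (83.3%) were higher. These counts depend on the scaling. With the deposited size factors and ValAAC counted, 2 of 8 inosine anticodons, 3 of 8 often seen as 5′ fragments and 4 of 11 branched-chain ones were higher. Of the 48 anticodons, 25 were higher with these factors. Differences between these lists and the 48 anticodons were not tested.

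Alanine and isoleucine, whose tRNAs also include an isoacceptor with inosine, differed from valine in how reads were spread. The most abundant alanine locus, chr11.trna2022-AlaTGC, took 37.3% and 40.3% of the alanine reads, and the ratio of alanine tRNAs was 0.936 (0.920 to 0.953) with it and 0.984 (0.963 to 1.01) without it. chr11.trna1823-IleAAT took 96.6% and 96.9% of the isoleucine reads, and the ratio was 1.18 (1.16 to 1.20) with it and 1.29 (1.17 to 1.42) without it. The corresponding valine ratios were 1.25 with and 0.973 (0.938 to 1.01) without the most abundant locus, the latter with an interval that held 1, and with the deposited size factors valine was below 1 already with it. The difference between the families was not tested.

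Mitochondria make their own valine tRNA from the gene mt-Tv, between the mitochondrial rRNA genes. In the Ensembl table it had 197 reads in the AF25-high library against 128 in the other, a ratio of 1.55 (1.24 to 1.95). Of 19 mitochondrial tRNAs that reached 20 reads in either library, 15 had a ratio above 1 and 4 below, beside 71.8% of the 149 loci of the mature tRNA table above 1. The Ensembl table as a whole had fewer reads in AF25-high (375931 and 533803). Other scalings of its values were not tried.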

How the data were processed

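Small RNA of 1 AF25-high and 1 AF25-low culture was sequenced on the DNBseq platform. With sRNAbench, the authors aligned reads by Bowtie to GRCm38 and to small RNA databases (versions not given in the sources used here) and gave a read with several matches to the most expressed locus. Within a table, the counts of each library had been divided by 1 size factor. The deposited signal values are these normalized counts. The deposited columns of fold changes and p-values of the authors' comparison were not used, nor was the RNAcentral table, whose entries carry no anticodon.

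The smallest value above 0 of a column was taken as 1 read, and all values of the column were divided by it (100% of values whole, relative tolerance 1e-06). RPM used library totals of 28856715 and 29103700 reads, the medians over 38 anticodons of reads divided by the RPM in the study's supplement. Of these, 12 (AF25-high) and 13 (AF25-low) anticodons lay within 1% of the median. Single anticodons for which reads are shared, ValAAC and ValCAC among them, lay further from it. The supplement splits the reads of these anticodons otherwise than the deposited table. The level of each, and the direction of ValAAC alone or relative to ValCAC or ValTAC, therefore hold for the assignment of the table. So does the higher share of ValCAC in AF25-high. Reads were summed by anticodon and ratios given with exact Clopper-Pearson 95% intervals. A ratio of 2 items between libraries has an exact conditional interval. Counts and medians used loci that reached 20 reads in either library. Genes were taken from RefSeq (GRCm38.p6) and GENCODE M21 (symbols for 1572 of 1596 Ensembl identifiers), and a locus was linked to a gene where its chromosome had 1 of that anticodon in both.

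Named were the isoacceptors, loci with at least 1% of the valine reads in either library, and the 3 highest and 3 lowest loci by ratio with at least 20 reads. The remaining 4 loci were added afterwards to account for every member. Members and lists were chosen with earlier results of these data known. Alternatives were 4 other scalings, other minimums and pseudocounts, leaving out the most abundant locus and, chosen after seeing the data, another split of ValAAC and ValCAC. The steps were tested on simulated data. Calculations were made with scipy 1.17.1, numpy 2.4.6 and pandas 2.3.3 in Python 3.11.15, plots with matplotlib 3.10.9, and edgeR 4.0.16 in R 4.3.3 gave the TMM factor only.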

Additional observations from a re-analysis of the deposited data

How the results depend on the processing

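The scaling decides the direction of most sums. With the deposited size factors, the total of the tRNA table and TMM, the ratio of AF25-high to AF25-low was 0.928, 0.848 and 0.937 for valine, 0.671, 0.614 and 0.678 for ValAAC, 1.01, 0.922 and 1.02 for ValCAC and 0.771, 0.705 and 0.778 for ValTAC. In the same order it was 0.957, 0.875 and 0.967 for ValAAC and ValCAC summed and 0.649, 0.594 and 0.656 for the loci of chromosome 13, both sums added after the data were seen. Scaled to the total, chr1.trna710-ValCAC turned to 0.960 and only 1 of 9 valine loci was higher in AF25-high. Scaling to microRNA reads moved no value beyond its interval. Without the most abundant valine locus the ratio was 0.973 for valine, 0.962 for ValCAC and 0.928 for ValAAC and ValCAC summed. ValAAC without its most abundant locus had 0.728 and chromosome 13 without its own 0.802. Leaving out chr1.trna710-ValCAC also moved the shares of ValAAC, ValCAC and ValTAC to 31.5%, 23.6% and 44.9% in AF25-high and 33.9%, 23.9% and 42.2% in AF25-low cells. The share of valine among tRNA reads became 0.837% and 1.27%, or 3.96% and 4.52% without the 3 most abundant anticodons. ValAAC relative to ValCAC became 0.938, and ValTAC relative to ValCAC turned to 1.08. With 10% of the ValCAC reads counted as ValAAC, an alternative chosen after seeing the data, the ratio of ValAAC turned to 1.07 and that of ValAAC relative to ValCAC moved to 0.786. The share of ValAAC then became 17.0% and 19.9% and that of ValCAC 69.9% and 64.3%. The split of the study's supplement gives ValAAC a larger part still. With no minimum of reads, 5 of 13 valine loci were higher in AF25-high and 5 were at least 2-fold apart. ValTAC has 1 locus and no value without it, and the most abundant valine locus is no part of ValAAC or ValTAC. The other causes of these moves were not tested. Of 112 alternative values, 47 stayed within the interval or limit of the main value. No paired analysis was possible because each condition has 1 library, and no replicate could be left out.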
